A study of Mus musculus with 52 samples.

Results

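The comparison sets mouse liver at 1 week after partial hepatectomy against liver at 4 days, an interval late in the regrowth of the remnant. It used 7 of the 52 arrays of the series, namely replicates 1 to 3 at 1 week and replicates 1 to 4 at 4 days, chosen by the time given in the sample titles. The livers at both times came from mice labelled male, of strain C57Bl6/N, 8 to 12 weeks old at the operation per the design text, which took a 2/3 resection and kept the mice on standard diet before and after it. Both groups had thus been operated on, no untreated liver entered the contrast, and no sham-operated liver was analysed here. Total RNA was read on Affymetrix Mouse Genome 430 2.0 arrays, 1 per sample, and values are log2 expression as deposited. Nothing in the labels says that each array was a mouse of its own. The p-values therefore speak of the spread among samples, which may be technical, and the number of arrays limits the precision. That spread was taken within all groups of the series, so arrays of other times enter it beside the 7 compared.

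After loss of tissue the hepatocytes of the remnant, which normally rest, enter the cell cycle, replicate DNA and divide while they keep supplying the body with glucose, bile and plasma proteins. Growth stops when liver mass has been restored, and matrix made by stellate cells is remodelled around the new tissue. Lipid synthesis from glucose is a main task of the resting, fed liver, and it runs through glycolysis, citrate export and the reductive power of malic enzyme.

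The fourth array at 1 week was left out because of its own readout. Over the 2000 most variable genes, as deviations from the mean of all arrays, it correlated at -0.28 with the mean of the other 3 arrays at 1 week, and its highest correlation, 0.38, was with the 12-hour group. The 3 arrays kept had 0.75, 0.67 and 0.62 with the rest of their own group. The 4-day arrays were less alike, at 0.55, 0.51, 0.51 and 0.20. Replicates 1 and 3 at 4 days were closest to the 1-week mean (0.68 and 0.51), replicate 2 to the 3-day mean (0.70), and replicate 4 had no correlation above 0.20 with any group. Poly-A control transcripts, which are added before labelling, lay between 5.01 and 5.70 at 1 week and between 4.34 and 4.75 at 4 days, without overlap, whereas hybridization controls lay between 9.66 and 9.97 at 1 week and between 9.70 and 9.93 at 4 days. The 3' minus 5' difference of Gapdh, which grows as RNA degrades, was 0.69, 0.62 and 0.58 at 1 week. It was 1.18, 1.04, 1.24 and 0.66 at 4 days, so that only replicate 4 lay within the 1-week range. The part of these measures in the results was not tested beyond fits that use them as a covariate. Markers of hepatocytes, the cells that make up most of the liver, averaged 13.17 to 13.25 at 1 week and 13.18 to 13.24 at 4 days, and albumin (Alb) differed by -0.02 ± 0.07 (SE, 95% interval -0.16 to 0.11).

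Few genes separated the 2 times. In limma, 10 of 18195 genes (0.0550%) were called at an adjusted p under 0.05, 8 higher (0.0440%) and 2 lower (0.0110%) at 1 week. The 8 were Me1 and Pklr of lipid synthesis from glucose, the sterol exporter Abcg8, the glucocorticoid-activating enzyme Hsd11b1, and Bbip1, Ppm1g, Mfsd4b1 and Ring1, and the 2 were Fam25c and Cr2. They differed by 0.71 to 1.58 (log2) in either direction. At an unadjusted p under 0.05 there were 1394 genes, the median difference over all genes was 0.02, the median SE was 0.18, and 82 genes differed by 1 or more on the log2 scale, 5 of them called. With the fourth 1-week array included, 4 genes were called, of which 3 were among the 10, and with the 7 arrays fitted alone, without the spread of the other groups, none was (limma, 1508 genes at an unadjusted p under 0.05).

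The promoter of Pklr is shown because Pklr is a called gene whose window holds the pattern described here, and the region between Abcg8 and Abcg5 because the start sites of this gene pair face away from each other. Both sequences were taken from RefSeq, build GRCm38.p6, plus strand, and run from 250 bases before to 50 bases after the start. Pklr lies at chr3:89136373-89136672 with its start at 89136623, and Abcg8 at chr17:84682871-84683170 with its start at 84683121. Capitals in Pklr mark a match to the pattern of a carbohydrate response element, CANGNG and CNCNTG with 5 bases of any kind between them (N is any base), which reads the same on both strands. Capitals in Abcg8 mark the 109 bases between its start and that of Abcg5.
Pklr: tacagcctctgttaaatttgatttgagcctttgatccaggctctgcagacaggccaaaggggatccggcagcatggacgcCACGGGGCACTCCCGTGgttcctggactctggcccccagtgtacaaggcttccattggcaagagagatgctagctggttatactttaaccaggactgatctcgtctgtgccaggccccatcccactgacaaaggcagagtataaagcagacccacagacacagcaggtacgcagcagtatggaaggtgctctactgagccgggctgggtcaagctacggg
Abcg8: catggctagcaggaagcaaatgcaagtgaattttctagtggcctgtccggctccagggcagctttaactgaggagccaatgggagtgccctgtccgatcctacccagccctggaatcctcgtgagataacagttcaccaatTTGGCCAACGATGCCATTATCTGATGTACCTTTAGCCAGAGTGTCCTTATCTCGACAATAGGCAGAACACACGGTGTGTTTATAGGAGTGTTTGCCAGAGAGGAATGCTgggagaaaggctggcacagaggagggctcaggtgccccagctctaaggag

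The Pklr match ran from position -170 to position -154, counted from the start. The pattern was found in 183 of 32851 promoter windows (0.557%), and in 1 of the 22 windows of 16 members of the fatty acid and triglyceride synthesis list. The other Pklr window, whose start is 481 bases away, did not hold it. A match is a description of the letters and not a binding site, and no binding data were analysed here.

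Me1 and Pklr were the called genes of lipid synthesis. Me1, the cytosolic malic enzyme that supplies NADPH to fatty acid synthesis, had 10.25, 10.77 and 10.38 at 1 week, against 8.91, 9.14, 8.98 and 8.50 at 4 days. Its lowest 1-week array lay above its highest 4-day array, and it rose by 1.58 ± 0.28 (SE; limma adjusted p = 0.00577). The other probe set of Me1 gave 0.98 ± 0.23. Pklr, the pyruvate kinase of liver that ends glycolysis, had 8.18, 8.42 and 8.76 at 1 week and 7.39, 7.01, 7.15 and 6.49 at 4 days. The groups did not overlap, and Pklr rose by 1.44 ± 0.26 (SE; limma adjusted p = 0.00919), with its other probe sets at 1.12 and 0.73. The array left out stood far from both, at 8.50 for Me1 and 4.93 for Pklr. With that array included the differences were 1.09 for Me1 (adjusted p = 0.27) and 0.56 for Pklr (adjusted p = 0.71). With the poly-A controls as a covariate, which did not overlap between the times, Me1 was still called and Pklr was not.

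**Figure D1:**
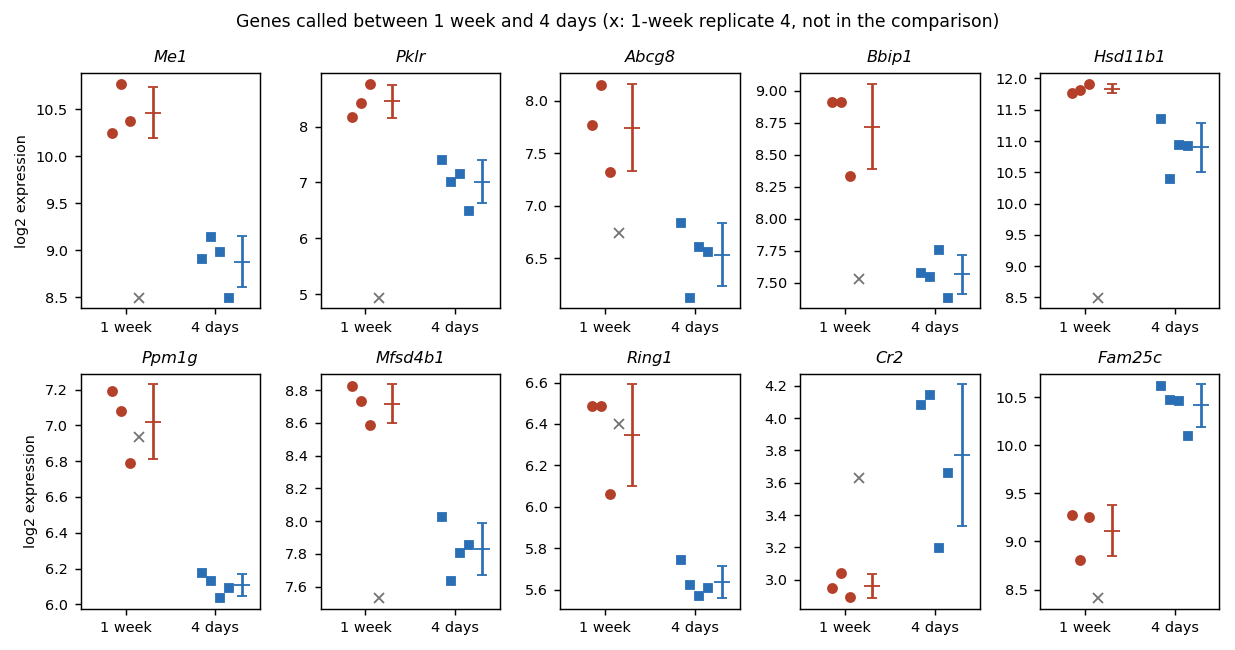
Log2 expression (vertical axis) of the 10 called genes in each array at 1 week (circles, replicates 1 to 3) and 4 days (squares, replicates 1 to 4), with the mean and SD of each group to the right of its points. The groups do not overlap in any panel, and the cross, 1-week replicate 4, falls among or below the 4-day arrays for Me1, Pklr, Abcg8, Bbip1, Hsd11b1 and Mfsd4b1 but with the 1-week arrays for Ppm1g and Ring1.

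Abcg8 and Abcg5 form the transporter that exports cholesterol and plant sterols into bile. Abcg8 had 7.77, 8.15 and 7.32 at 1 week and 6.84, 6.12, 6.61 and 6.56 at 4 days, with no overlap, and rose by 1.21 ± 0.20 (SE; limma adjusted p = 0.00392). Its partner Abcg5 had 9.54, 9.72 and 9.11 at 1 week against 8.83, 8.38, 8.67 and 8.07 at 4 days. The Abcg5 groups did not overlap either, but its difference of 0.97 ± 0.32 did not pass (adjusted p = 0.335). The start sites of both genes lie 110 bases apart. With the fourth 1-week array Abcg8 differed by 0.96 (adjusted p = 0.095). Of the 22 measured genes of bile acid synthesis and transport, Abcg8 alone was called, and the list's median was 0.09. Nr0b2 and Cyp7a1 show its spread, Nr0b2 chosen after its values were seen. Nr0b2, the nuclear receptor that represses bile acid synthesis, was at 9.26, 8.53 and 7.70 at 1 week and at 6.77, 7.39, 6.99 and 6.30 at 4 days, a difference of 1.63 ± 0.64 that was not called. Cyp7a1, which catalyses the first and rate-limiting step of the classic bile acid pathway and is repressed by Nr0b2, was at 9.31 to 11.44 at 1 week and at 9.83 to 12.03 at 4 days, with a difference of -0.52 ± 1.05 (SE, not called).

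Hsd11b1 regenerates active glucocorticoid from its inactive 11-keto form in the liver. It had 11.77, 11.82 and 11.91 at 1 week and 11.36, 10.39, 10.93 and 10.91 at 4 days. The 1-week arrays were nearly equal and all above the 4-day arrays, and Hsd11b1 rose by 0.94 ± 0.15 (SE), with the smallest adjusted p of all genes (limma, 0.00364). This call depends on leaving out the fourth 1-week array, in which Hsd11b1 was at 8.49, since with it the difference was 0.10 (adjusted p = 0.96). It depends on the spread of the other groups as well, since limma called no gene with the 7 arrays fitted alone.

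Of the other called genes, Ppm1g and Ring1 were least altered by the array left out. Ppm1g, a nuclear protein phosphatase, averaged 7.02 ± 0.21 at 1 week and 6.11 ± 0.06 at 4 days (SD, n = 3 and 4) and rose by 0.91 ± 0.18 (SE; adjusted p = 0.0267), against 0.89 (adjusted p = 0.0246) with that array. Ring1, a ubiquitin ligase of Polycomb repressive complexes, averaged 6.35 ± 0.25 and 5.64 ± 0.08 at the same times and rose by 0.71 ± 0.14 (adjusted p = 0.0227), against 0.72 (adjusted p = 0.00991). Mfsd4b1, a membrane transporter of the major facilitator superfamily, rose by 0.89 ± 0.17 (adjusted p = 0.0227), and its other probe set gave 1.05. Bbip1, a subunit of the ciliary BBSome, rose by 1.15 ± 0.24 (adjusted p = 0.0375) on the probe set with the highest level only, since its other sets gave 0.21 and -0.08.

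Fam25c was the called gene with the largest decrease. It had 9.28, 8.81 and 9.25 at 1 week and 10.62, 10.47, 10.46 and 10.10 at 4 days, with no overlap, and fell by 1.30 on the log2 scale (SE 0.26; limma adjusted p = 0.0267). With the fourth 1-week array, which was at 8.41, the difference was -1.48 (adjusted p = 0.00809). Cr2, a complement receptor of B cells, fell by 0.81 (SE 0.17; adjusted p = 0.0364), with 2.89 to 3.04 at 1 week against 3.20 to 4.14 at 4 days. These Cr2 values lie near or below the median of all probe sets on these arrays, which was 3.89 to 3.97, and so are not separated from background.

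Across the time course the called genes took different paths, given here as group means ± SD without a test. Me1 was at 9.56 ± 0.47 in the controls, 8.26 ± 0.33 at 48 hours, 8.88 ± 0.27 at 4 days, 10.47 ± 0.27 at 1 week and 9.59 ± 0.47 at 2 weeks, so that its 1-week mean was the highest of these. Pklr was at 8.65 ± 0.28 in the controls, 6.63 ± 0.21 at 48 hours, 7.01 ± 0.38 at 4 days, 8.45 ± 0.29 at 1 week and 7.81 ± 0.14 at 2 weeks. Fam25c ran the other way, with 9.59 ± 0.32 in the controls, 10.88 ± 0.28 at 48 hours, 10.41 ± 0.22 at 4 days, 9.11 ± 0.26 at 1 week and 9.18 ± 0.14 at 2 weeks. Of the 8 genes higher at 1 week, 3 had a 1-week mean within 1 SD of the control mean.

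The 20 measured genes of fatty acid and triglyceride synthesis lay higher at 1 week as a list. All 20 differences were above 0, against 53.8% of all genes, their median was 0.65 against 0.02 over all genes, and 2 were called. At an unadjusted p under 0.05, 9 were higher, as for 4.72% of all genes. For 13 of the 20 every 1-week array lay above every 4-day array, as for 5.84% of all genes. The mean level of the list was 9.94, 10.14 and 10.06 at 1 week and 9.51, 9.40, 9.39 and 9.04 at 4 days. In 1-week replicate 4 the list was at 7.29, and with that array the median was -0.03 and no member lay above without overlap, as 2.72% of all genes did. Examples with large differences, chosen after their values were seen, were Lpin1, Thrsp and Fasn. Lpin1, a phosphatidate phosphatase of triglyceride synthesis, had 10.73, 10.30 and 10.66 at 1 week and 9.30, 8.23, 8.50 and 10.04 at 4 days, a difference of 1.54 ± 0.48 (adjusted p = 0.309). Fasn, fatty acid synthase, had 10.22, 10.54 and 10.33 against 9.83, 9.60, 9.31 and 8.47, a difference of 1.06 ± 0.48 (adjusted p = 0.591). Thrsp, a lipogenic protein of liver, differed by 1.10 ± 0.85. At the low end were Dgat1 (0.07), which makes triglyceride from diacylglycerol, and Acly (0.09), which makes cytosolic acetyl-CoA.

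**Figure D2:**
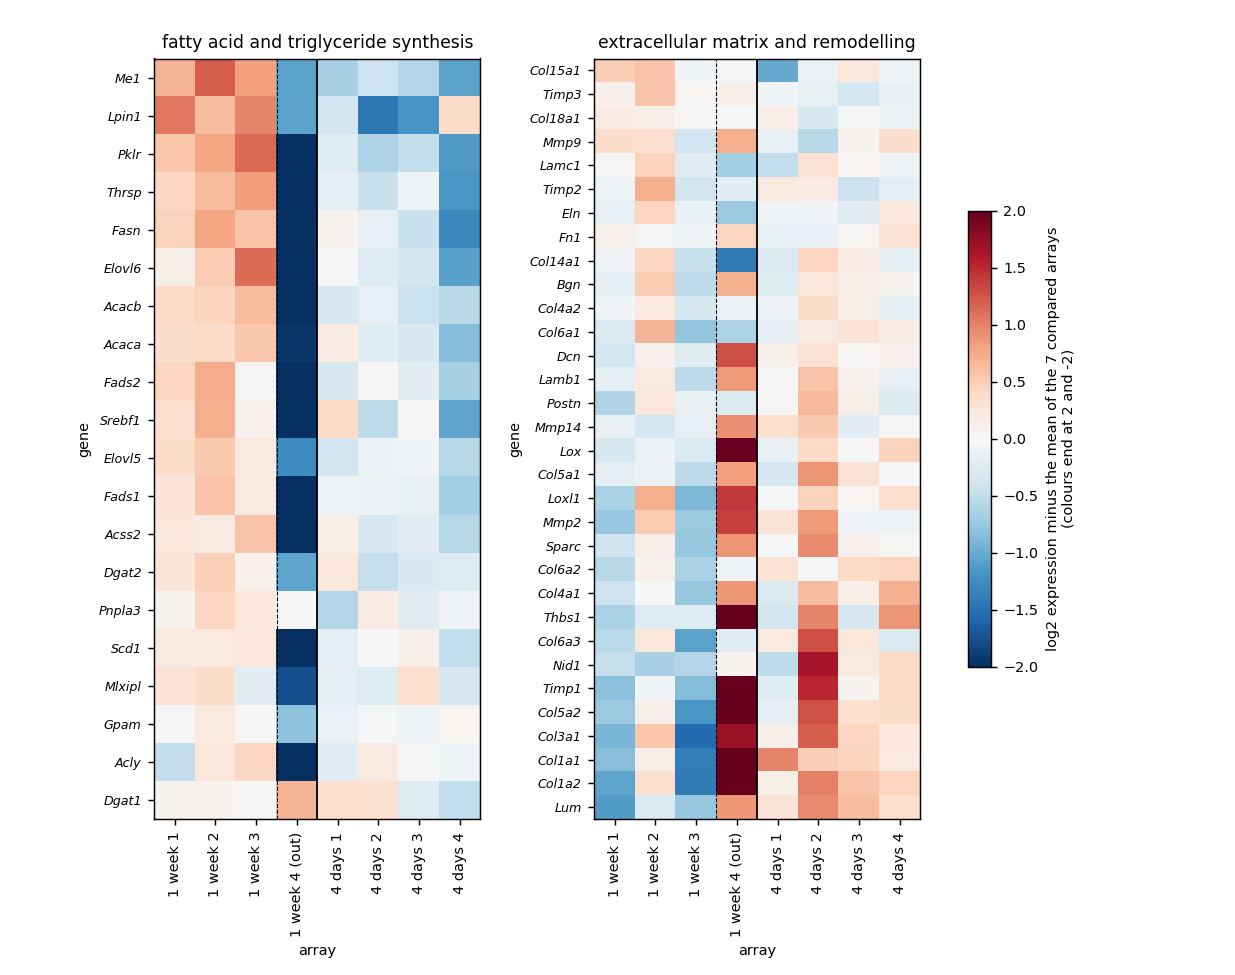
Log2 expression of each gene (rows) in each array (columns, 1 week then 4 days) minus its mean over the 7 compared arrays, for fatty acid and triglyceride synthesis (left) and extracellular matrix and remodelling (right); red is higher, blue lower, and colours end at 2 and -2. The synthesis genes are red in most rows of 1-week replicates 1 to 3 and dark blue in most rows of the array left out, while Col1a2, Col3a1 and Col5a2 at the bottom right are lowest in 1-week replicates 1 and 3 and highest in 4-day replicate 2 among the compared arrays.

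Other lists of liver metabolism had no member called, and their counts depended on the fourth 1-week array. Over all genes 53.8% of differences were above 0 and 5.84% of genes lay higher at 1 week without overlap. Gluconeogenesis and glycogen had 15 of 18 differences above 0, a median of 0.37, and 9 members whose groups did not overlap, all higher at 1 week. Gbe1, the glycogen branching enzyme (0.86 ± 0.37), and Gys2, glycogen synthase of liver (0.72 ± 0.29), were examples. Fatty acid oxidation and PPAR-alpha targets had 17 of 19 above 0, a median of 0.35 and 6 members without overlap. Ehhadh, a peroxisomal enzyme of beta-oxidation, had 11.94, 12.31 and 11.85 at 1 week and 10.94, 10.53, 10.98 and 10.48 at 4 days, a difference of 1.30 ± 0.40 (adjusted p = 0.309), and Hadha, of the mitochondrial trifunctional protein, differed by 0.99 ± 0.28 (adjusted p = 0.237). Respiratory chain subunits had 5 of 24 members above without overlap and a median of 0.13. With the fourth 1-week array 2.72% of all genes lay higher without overlap. Of gluconeogenesis and glycogen 4 of 18 members were then without overlap, all higher at 1 week, and the median was 0.29. Of oxidation 1 member was then without overlap, 9 of 19 differences were above 0 and the median was -0.09. Of the respiratory chain 0 members were without overlap, 8 of 24 differences were above 0 and the median was -0.06.

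Clock genes differed in both directions, none of them called. Arntl, the activator of the clock also known as Bmal1, had 3.67, 4.18 and 3.81 at 1 week and 5.28, 6.06, 4.96 and 6.33 at 4 days. The groups did not overlap, and the difference of -1.77 ± 0.51 did not pass (adjusted p = 0.237). The 1-week values of Arntl lie near the median of all probe sets, so the size of its difference is uncertain. Ciart (1.19 ± 0.37) and Bhlhe40 (0.94 ± 0.35), clock genes chosen after their values were seen, lay higher without overlap. Of 20 members 15 were above 0, 5 below 0 and 6 higher without overlap, against 5.84% of all genes, and the median was 0.42. When the fourth 1-week array was included, 2 members lay higher without overlap, against 2.72% of all genes, and the median was 0.30. The mean level was 6.978 to 6.997 at 1 week and 6.32 to 6.81 at 4 days. The labels used here give no hour of sampling, so time after the operation and time of day cannot be told apart.

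**Figure D3:**
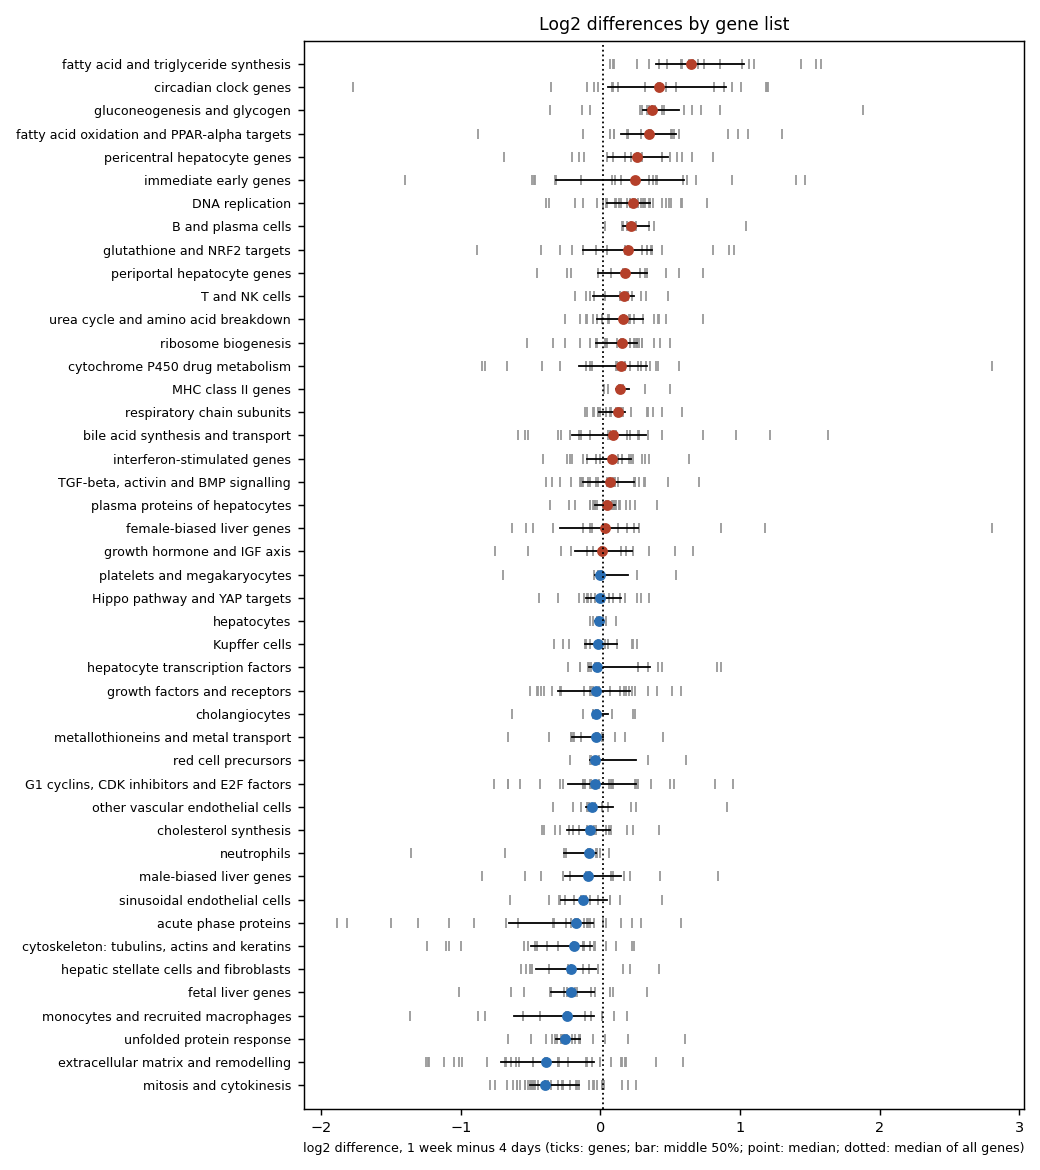
Log2 differences between 1 week and 4 days (horizontal axis) for the 45 gene lists (rows), with 1 tick per gene, a bar over the middle 50% of each list, a point at its median, and a dotted line at the median of all genes, 0.02. Fatty acid and triglyceride synthesis has the highest median, 0.65, which is -0.03 with the fourth 1-week array. The lowest are mitosis and cytokinesis, -0.40, and extracellular matrix, -0.39. The mitosis median is 0.13 without 4-day replicate 2 and -0.84 with the fourth 1-week array.

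Cell cycle genes did not separate the times. None of the 41 genes of mitosis and cytokinesis was called or free of overlap, 6 differences were above 0 and the median was -0.40. Without 4-day replicate 2 the median was 0.13, and with 1-week replicate 4 it was -0.84, with 0 of 41 differences above 0. The list stood at 5.10, 5.73 and 5.23 at 1 week and at 5.46, 7.12, 5.53 and 4.63 at 4 days, so that the 4-day arrays included both the highest and the lowest value. Mki67, a protein of cycling cells, had 6.55, 7.06 and 6.62 at 1 week against 7.02, 8.84, 7.33 and 5.78 at 4 days, a difference of -0.50 ± 0.83 (adjusted p = 0.952) with a 95% interval from -2.18 to 1.18. Without 4-day replicate 2 that difference was 0.03. Top2a, the topoisomerase of mitotic chromosomes, gave -0.60 ± 0.71. Among the 33 genes of DNA replication 28 differences were above 0 and the median was 0.24, with none called or without overlap. When 1-week replicate 4 was included, 13 of 33 were above 0 and the median was -0.07. Mcm6, of the replicative helicase, gave 0.31 ± 0.80, and Ccnd1, cyclin D1, gave 0.53 ± 0.41. Over the time course the mitosis list averaged 3.83 ± 0.06 in the controls, 7.13 ± 0.90 at 48 hours, 5.69 ± 1.04 at 4 days, 5.35 ± 0.33 at 1 week and 4.29 ± 0.15 at 2 weeks (SD, n = 5, 4, 4, 3 and 2). In 1-week replicate 4 it was at 3.70.

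**Figure D4:**
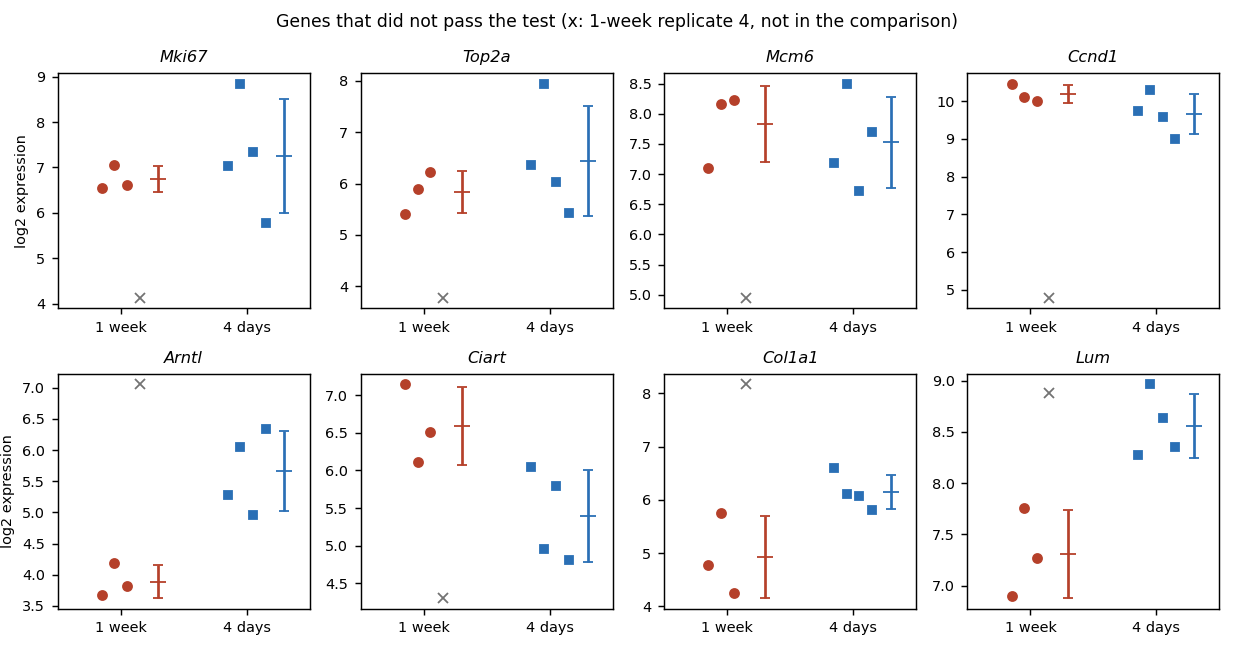
Log2 expression (vertical axis) at 1 week (circles) and 4 days (squares) of 8 genes that did not pass the test, with the mean and SD of each group; the cross is 1-week replicate 4. Mki67, Top2a, Mcm6 and Ccnd1 overlap between the times, whereas the 1-week arrays lie below the 4-day arrays for Arntl, Col1a1 and Lum and above them for Ciart.

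Regulators of the entry into and exit from the cycle were not called either. Among 26 G1 cyclins, CDK inhibitors and E2F factors 12 differences were above 0, with a median of -0.04. Rbl2, the p130 pocket protein that holds E2F targets silent in resting cells, had 7.05, 7.26 and 6.79 at 1 week and 6.27, 6.18, 6.12 and 5.76 at 4 days. Its groups did not overlap, and the difference of 0.95 ± 0.25 did not pass (adjusted p = 0.169), while it was called without 6 arrays of other groups that stood apart (adjusted p = 0.0303). Cdkn1a, the CDK inhibitor p21, overlapped between the times at -0.66 ± 0.65.

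Immediate early genes varied between single arrays, and no member of the growth signal lists was called. Of 20 immediate early genes 13 differences were above 0 and the median was 0.25, and without 1-week replicate 2 the median was -0.14. The lowest difference was that of Ier3, a stress-induced early gene, at -1.40 ± 0.66. Klf10, a transcription factor induced by TGF-beta, had 6.80, 6.65 and 7.73 at 1 week and 5.77, 5.34, 5.35 and 5.91 at 4 days, and Dusp1, a phosphatase of MAP kinases, had 8.75, 9.97 and 9.89 against 8.30, 8.23, 7.90 and 8.14. Both were without overlap, at 1.47 ± 0.47 (adjusted p = 0.324) and 1.40 ± 0.42 (adjusted p = 0.298), and both were chosen after their values were seen. Fos, by contrast, was at 9.95 in 1-week replicate 2 and at 4.99 and 5.03 in the other 1-week arrays. Inhbb, the beta B subunit of activin and inhibin, gave -0.03 ± 0.16 and Igf1, the growth factor the liver secretes under growth hormone, -0.10 ± 0.12, with medians of 0.07 for the TGF-beta, activin and BMP list and 0.01 for the growth hormone and IGF list.

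Drug metabolism, redox and sex-biased genes showed no common direction, and no member was called in the fit with all groups complete but for 1-week replicate 4. Without the 6 arrays of other groups that stood apart, Cyp2d9 (-0.85, limma adjusted p = 0.00803) and Gstp1 (-0.43, adjusted p = 0.028) were called. Both are in the male-biased list. The 6 arrays include the 24-hour arrays with high Xist, a transcript of female cells, whose part in the spread of these genes was not tested. The median was 0.15 for cytochrome P450 genes, where Cyp2b9, a female-biased enzyme, had the largest difference (2.80 ± 1.22, adjusted p = 0.551) and Cyp3a11, the main CYP3A enzyme of mouse liver, lay lower without overlap (-0.42 ± 0.18). Among glutathione and NRF2 genes, Gstm4 lay higher without overlap (0.96 ± 0.37). Gstp1, another glutathione transferase, had 13.06, 13.05 and 12.80 at 1 week and 13.44, 13.46, 13.41 and 13.27 at 4 days (-0.43 ± 0.17, adjusted p = 0.507). Within the 1-week group replicate 3 differed from the others, with the male-biased list at 7.34 against 8.81 and 8.92, the female-biased list at 6.08 against 5.00 and 5.01, and Hsd3b5, a male-biased steroid dehydrogenase, at 2.77 against 5.73 and 6.18. The 4-day arrays also spread, from 7.81 to 9.20 for the male-biased list. Pericentral hepatocyte genes had 14 of 18 and periportal ones 9 of 13 differences above 0, with medians of 0.27 and 0.18, and cholesterol synthesis had 6 of 16 and a median of -0.07.

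Matrix genes lay lower at 1 week, with none called. Of 32 measured genes of extracellular matrix and remodelling, 7 differences were above 0, the median was -0.39, and 14 were lower at an unadjusted p under 0.05, against 2.94% of all genes. Only 2 lay lower without overlap, against 3.13% of all genes. Col1a1, a chain of type I collagen, had 4.77, 5.76 and 4.24 at 1 week and 6.59, 6.11, 6.07 and 5.82 at 4 days, a difference of -1.23 ± 0.35 (adjusted p = 0.232). Lum, a proteoglycan that binds collagen fibrils, had 6.90, 7.75 and 7.27 against 8.28, 8.96, 8.63 and 8.35, a difference of -1.25 ± 0.35 (adjusted p = 0.212). The list stood at 6.29, 6.85 and 6.09 at 1 week and at 6.59, 7.17, 6.75 and 6.79 at 4 days, and at 7.45 in 1-week replicate 4, with which the median was -0.12. Markers of hepatic stellate cells and fibroblasts, the cells that make matrix, had 3 of 14 differences above 0 and a mean level of 6.00 to 6.46 at 1 week and 6.14 to 6.63 at 4 days. In such tissue RNA, fewer cells of a type and less RNA per cell cannot be told apart. Cytoskeletal genes had a median of -0.19, with Lgals1, a galectin, at -1.25 ± 0.33 and Vim, the intermediate filament of mesenchymal cells, at -1.09 ± 0.36.

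Inflammation genes and fetal liver genes were not called. Of 26 acute phase genes 6 differences were above 0, with a median of -0.18. The median was 0.0047 without 4-day replicate 4, and it was 0.06, with 15 of 26 above 0, with the fourth 1-week array. Lcn2 (-1.89 ± 1.13) and Saa2 (-1.50 ± 1.14) spread widely among the 4-day arrays, Saa2 from 9.01 to 13.44. Markers of monocytes and recruited macrophages averaged 4.03 to 4.48 at 1 week and 4.36 to 4.78 at 4 days, with a median difference of -0.24, and 4 of 12 lay lower without overlap, against 3.13% of all genes. Among the 4 were Chil3 and S100a4, whose 1-week values lie below the median of all probe sets. With the fourth 1-week array 0 of the 12 lay lower without overlap, against 1.15% of all genes, and the median was -0.03. Markers of T and NK cells, at 3.59 to 3.84 at 1 week and 3.44 to 3.66 at 4 days, were not above the median of all probe sets. B and plasma cell markers were at 4.13 to 5.21 at 1 week, highest in replicate 2, and at 4.05 to 4.48 at 4 days. Kupffer cell markers stood at 6.70 to 7.18 at 1 week and 6.35 to 7.32 at 4 days. Afp, the fetal counterpart of albumin, had 5.73, 5.44 and 5.53 at 1 week and 6.79, 6.88, 6.54 and 6.09 at 4 days, without overlap, and its difference of -1.01 ± 0.54 was not called (adjusted p = 0.699).

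The design also asks whether the step from 4 days to 1 week differs from an earlier and a later step. Those steps pass over the 3-day and 2-week groups, and the steps compared differ in length. Against the preceding step, from 48 hours to 4 days, the limma fit called 19 genes (0.104%), 8 with a difference of steps above 0 and 11 below. The 4-day arrays enter both steps, so a deviation in them moves the steps apart, and in all 19 genes the steps had opposite signs. Ppm1g changed by 0.91 in the step to 1 week and by -0.99 in the step before it (difference 1.90 ± 0.30, adjusted p = 0.00278). Plat, tissue plasminogen activator, had -0.75 and 0.84 in the same steps, Lgals1 -1.25 and 1.37, and Col5a2, a fibrillar collagen chain, -1.05 and 1.42. At 3 days the means were 6.35 for Ppm1g, 8.77 for Lgals1 and 7.10 for Col5a2, against 6.11, 9.49 and 7.13 at 4 days. The Plat means were 3.18 at 1 week, 3.93 at 4 days, 4.09 at 3 days and 3.09 at 48 hours. They lie near or below the median of all probe sets and so are not separated from background. Without 4-day replicate 2 the count was 2.

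Against the following step, from 1 week to 4 weeks, 19 genes (0.104%) were called, 18 of them with the later step lower, and the steps again had opposite signs in all 19. Here the 1-week arrays enter both steps, and 6 of the 10 genes called between 1 week and 4 days were among them, which is no independent evidence. Abcg8 changed by -1.11 in the step to 4 weeks and by 1.21 in the step to 1 week (difference -2.32 ± 0.36, adjusted p = 0.00163), Pklr by -0.88 and 1.44, and Me1 by -0.76 and 1.58. Abcg5 (-1.68 and 0.97) and Scarb1 (-1.22 and 0.50), a receptor that takes up cholesterol from HDL, were also called. Of the 4-week arrays, replicate 1 stood apart from its group, and without it 7 of the 19 were called, with Abcg8, Pklr and Scarb1 among them and Me1 and Abcg5 not. Without 1-week replicate 1 none was called by limma (1628 genes at an unadjusted p under 0.05), and without 1-week replicate 2 none was (1438 genes).

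**Figure D5:**
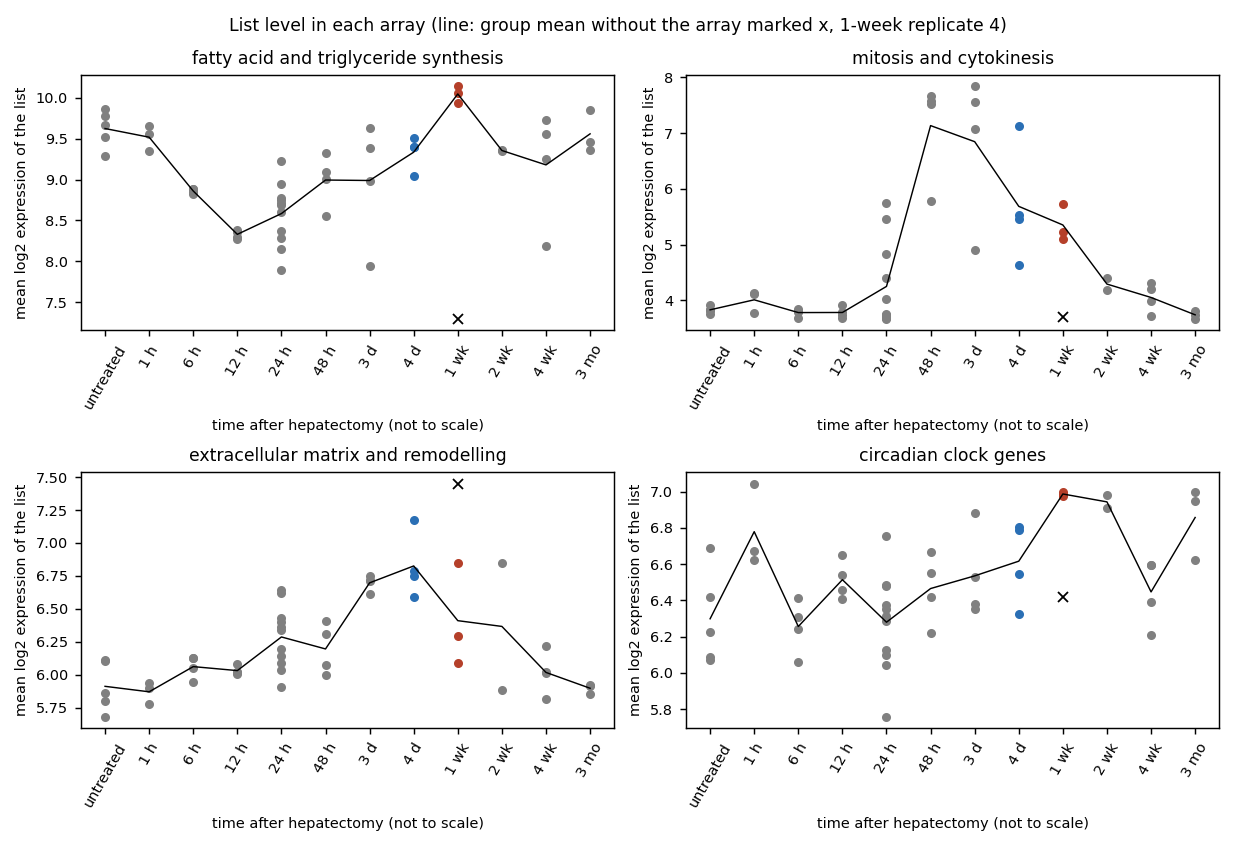
Mean log2 expression of 4 gene lists (vertical axes) in each array, by time after the operation (horizontal axis, not to scale, untreated controls at the left); red points are 1 week, blue points 4 days, the line joins group means and the cross is 1-week replicate 4, which is not in the line. Fatty acid and triglyceride synthesis averaged 9.33 ± 0.20 at 4 days, 10.05 ± 0.10 at 1 week and 9.36 at 2 weeks, and the mitosis list is still above the controls at 1 week.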

How the data were processed

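The authors deposited log2 values per probe set. The submitters' processing notes name oligo 1.52.0 and RMA. Per the labels' protocols, TRIzol RNA was copied with oligo dT primers and made into biotinylated cRNA. The sources used here do not say if the arrays were normalized as 1 batch. RMA hides a shift shared by most genes. Of 45101 probe sets, 34958 had 1 gene in the platform annotation, giving 18195 genes, each read by its brightest probe set (mean of all arrays).

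All arrays but 1-week replicate 4, 51 in 12 groups, entered a limma 3.58.1 fit of group means (R 4.3.3, eBayes). Tests were two-sided with Benjamini-Hochberg adjustment over all genes, and calls were made at an adjusted p under 0.05. Values after ± are SE for differences. The members and the 45 lists (33 pathways, 12 cell types) were chosen with earlier results of these data known, so lists are given as counts without a test. Genes named were the index genes, called genes without overlap and called list members, and further examples were chosen after their values were seen. On simulated data of 18195 genes for this contrast, 79% of 100 genes changed by 1 (log2) and 97% of 100 changed by 2 were found, with 8 false calls. The simulated arrays were drawn independently, with 1 spread per gene in all groups and no outlying arrays. These shares therefore need not hold for the real arrays, where the 4-day group was less alike. Alternatives were a replicate block, fits with fewer or more arrays, other probe set rules, filters, scalings, priors, weights, thresholds and quality covariates. Same-numbered arrays of both times, replicates 1 to 3, correlated at -0.03, 0.11 and -0.13 in their deviations from the mean of those 3 arrays. Differently numbered arrays correlated at -0.178 to 0.235. With 3 arrays per time these values cannot decide whether the numbers pair the samples.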

Additional observations from a re-analysis of the deposited data

Results flagged for a closer look

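In 3 of the values tested, 1 array at 4 days stood apart from the other 3 by more than Dixon's test allows, among 29 named genes and 45 list levels. Chance marks about 1 in 20 such groups. Myc, a growth-promoting transcription factor, was at 6.02 in 4-day replicate 3 and between 6.65 and 6.75 in the other 4-day arrays. The mean level of the Hippo pathway and YAP target list was 6.49 in 4-day replicate 2 and between 6.16 and 6.20 in the others. The unfolded protein response list was at 10.42 in 4-day replicate 4, against 9.67 to 9.73 in the others, and at 9.62 to 9.79 in the 1-week arrays compared. Its median difference between 1 week and 4 days was -0.25, and without that array it was -0.05.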

How the results depend on the processing

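The count of 10 genes (8 higher, 2 lower at 1 week) depends on the settings. It was 20 (14 and 6) with the replicate block, 20 (18 and 2) with the Gapdh difference as covariate, 22 (17 and 5) with every probe set, 494 (411 and 83) with array weights, 4 (4 and 0) at an adjusted p under 0.01, 5 (4 and 1) at 2-fold or more, and 4 (2 and 2) with 1-week replicate 4. Without 6 arrays of other groups that stood apart (24-hour replicates 1, 9, 10 and 11, control replicate 1 and 4-week replicate 1) it was 67 (51 and 16) and held all 10. Xist, a transcript of female cells, was at 9.1, 9.5 and 9.1 in 24-hour replicates 9, 10 and 11. In the 7 arrays compared it was between 3.00 and 3.53. The Gapdh difference was 2.32 in 24-hour replicate 1 and 2.56 in control replicate 1. All 6 arrays are part of the spread by which the 10 genes were judged. The 7 arrays fitted alone in limma gave 0 (0 and 0), with 1508 genes at an unadjusted p under 0.05. The filter, quantile normalization and the poly-A covariate each left 1 gene lower, and the other settings kept the count within 1.5 times. Leaving out 1 array gave 1 to 11 genes, 1 to 11 of them higher and 0 to 4 lower, with 1 without 1-week replicate 2, 4 without 4-day replicate 2, 5 without 1-week replicate 1 and 6 without 4-day replicate 4. Over 23 settings Me1, Abcg8 and Hsd11b1 were called in 20, Pklr in 17, Fam25c in 15, Ppm1g in 14, Mfsd4b1 and Ring1 in 13, and Bbip1 and Cr2 (of 22 for Cr2) in 10, and none of the 10 turned its direction. Of 7 fits without 1 array, Hsd11b1 was called in 7, Me1 and Abcg8 in 6, Pklr in 4, Mfsd4b1, Ppm1g and Ring1 in 2, and Bbip1, Cr2 and Fam25c in 1. Whether the replicate numbers pair the samples is not known.

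For the step to 1 week against the step before, the count of 19 was 0 with the groups alone (limma, 1840 at an unadjusted p under 0.05), 3 with 1-week replicate 4, 84 without the 6 arrays, 49 with the mean of probe sets, 127 with every probe set, 30 with median centring, 251 with array weights, 3 at an adjusted p under 0.01 and 81 with the hybridization covariate, and 2 to 31 without single arrays. For the step to 4 weeks against the step to 1 week, the count of 19 was 59 with the replicate block, 0 with the groups alone (2294 unadjusted), 35 with 1-week replicate 4, 131 without the 6 arrays, 39 with the mean of probe sets, 62 with every probe set, 47 with the filter, 5 after quantile normalization, 2070 with array weights, 1 at an adjusted p under 0.01, 1 with the hybridization, 8 with the poly-A and 45 with the Gapdh covariate, and 0 to 66 without single arrays. The cause of these shifts was not tested.

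Some uncalled genes changed sign. With 1-week replicate 4, Mcm6 was at -0.41, Ccnd1 -0.82, Myc 0.29, Hsd3b5 -0.22 and Inhbb 0.048. Mcm6 was at -0.013 with the mean of probe sets and -0.029 with the Gapdh covariate, and quantile normalization gave Alb 0.00 and Clec4f -0.038. The poly-A covariate gave Cdkn1a 0.26, Hsd3b5 -0.96, Mt1 0.35 and Clec4f -0.25. Without single arrays Myc ranged from -1.12 to 0.13, Hsd3b5 from -0.22 to 1.49, Inhbb from -0.13 to 0.065, Clec4f from -0.10 to 0.22, Mt1 from -0.41 to 0.015, Cyp7a1 from -1.05 to 0.016, Mki67 from -0.99 to 0.032 and Igfbp1 from -0.13 to 1.37. Of the 45 list medians, 14 moved by more than the spread between replicates with 1-week replicate 4 and at most 2 without any single array.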

Other observations

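Without 6 arrays of other groups that stood apart, 67 genes were called between 1 week and 4 days, which adds genes that missed the threshold with all arrays. Among those higher at 1 week, chosen after their values were seen, were Hadha of the mitochondrial trifunctional protein (0.99, adjusted p = 0.0435), Uqcrc1 of respiratory complex III (0.59, adjusted p = 0.0435) and Tkfc, triokinase of fructose metabolism (0.93, adjusted p = 0.0048). Among those lower were Lum (-1.25, adjusted p = 0.028), Lgals1 (-1.25, adjusted p = 0.0303) and Gstp1 (-0.43, adjusted p = 0.028). The differences are those of the fit with all arrays, and only the spread they are judged by changed.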
